A study of Mus musculus with 9 samples.

Results

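The genes described here are 10 genes of ERK feedback and output, chosen by gene name among the 54532 genes listed for the B.END3 cells. They are the phosphatase genes Dusp4, Dusp5 and Dusp6, the Sprouty genes Spry1, Spry2 and Spry4, the Sprouty-related genes Spred1 and Spred2, and the ETS factor genes Etv4 and Etv5. B.END3 is a mouse brain endothelial line, labelled with the strain C57BL/6, and its culture notes call the cells rat while the organism label is Mus musculus. RNA was sequenced from 9 libraries, 3 of untreated cells (Ctrl), 3 of cells given photodynamic therapy (PDT) at 10 J/cm2 (Ep1) and 3 at 20 J/cm2 (Ep2). A confluent layer of treated cells was held with 300 µg/mL porfimer sodium, a porphyrin photosensitizer, for 90 min and then lit at 635 nm and 100 mW/cm2. Ep1 and Ep2 thus share the drug and differ from Ctrl by drug and light together, and no library with drug alone or light alone was analysed here. The time from irradiation to RNA extraction is not given in the sources used here. All groups come from 1 line, and nothing says that the replicates were separate cultures, so the p-values measure only the spread between these libraries, which may be technical.

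The ERK pathway carries signals from growth factor receptors through RAS, RAF and MEK to the kinase ERK, which enters the nucleus and switches on transcription. Among the genes it induces are its own inhibitors: dual-specificity phosphatases remove phosphate from ERK, while Sprouty and Spred proteins act further up, between the receptor and RAF. ETV4 and ETV5 are ETS factors of the PEA3 family, which carry the output of fibroblast growth factor receptors and ERK to their target genes, and their transcripts, like those of Dusp6 and the Sprouty genes, are widely read as markers of ERK output.

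The sequences upstream of 4 of these genes are shown first. Dusp5 is a phosphatase gene that was higher at 20 J/cm2, and Dusp6 is one that did not pass the test. Spred1 is a Spred gene that was higher at both doses, and Etv5 is an ETS factor gene that was lower at 20 J/cm2. Entries for 7 of the 10 genes were used from the RefSeq promoter table of build GRCm38.p6. The sequences are read 5′ to 3′ on the strand of the gene. Each ends before both the RefSeq start and the gene start listed with the data. Capitals mark CArG boxes, the sites bound by serum response factor.
Dusp5 (chr19:53528895-53529108, plus strand): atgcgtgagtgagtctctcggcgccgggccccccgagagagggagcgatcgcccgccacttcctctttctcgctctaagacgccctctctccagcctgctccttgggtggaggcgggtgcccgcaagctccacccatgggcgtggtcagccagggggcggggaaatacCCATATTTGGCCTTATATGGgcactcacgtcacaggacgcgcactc
Dusp6 (chr10:99262981-99263230, plus strand): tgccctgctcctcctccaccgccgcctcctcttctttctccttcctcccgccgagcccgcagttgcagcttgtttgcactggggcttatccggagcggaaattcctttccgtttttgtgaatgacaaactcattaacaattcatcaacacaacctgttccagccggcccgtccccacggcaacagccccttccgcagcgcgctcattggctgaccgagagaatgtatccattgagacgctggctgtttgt
Spred1 (chr2:117120821-117121070, plus strand): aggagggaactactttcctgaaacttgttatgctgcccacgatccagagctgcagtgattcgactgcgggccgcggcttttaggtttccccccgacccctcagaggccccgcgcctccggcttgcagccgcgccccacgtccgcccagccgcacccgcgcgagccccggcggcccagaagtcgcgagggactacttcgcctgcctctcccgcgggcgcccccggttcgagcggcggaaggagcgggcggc
Etv5 (chr16:22439720-22439820, minus strand): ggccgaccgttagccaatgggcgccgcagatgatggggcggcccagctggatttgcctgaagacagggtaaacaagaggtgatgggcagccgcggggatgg

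In the 250 bases before the RefSeq start, Dusp5 held 2 CArG boxes that stand end to end, CCATATTTGG at 82 to 73 bases and CCTTATATGG at 72 to 63 bases before the start. A CArG box on either strand is present in 1.47% of all 32851 promoter windows of this length. The pentamer TGACG, the core of a cyclic AMP response element, was present 1 time each before Dusp5 and Spred2 on the reverse strand and in 17.8% of all windows. The whole element TGACGTCA (1.55% of windows, each of which also holds the pentamer) was absent from the windows of the 7 genes. So were CCGGAA, an extended form of an ETS site (12% of windows), and the AP-1 site TGANTCA (6.75% of windows). The shorter string GGAA was not counted, and it is present in the Dusp5, Dusp6 and Spred1 sequences above. These are matches of letters and not measured sites of binding.

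Between 16240688 and 19509225 fragments per library were counted on genes, and levels are given as FPKM, fragments scaled to gene length and library size, so that levels of different genes can be set side by side. Of 12 endothelial markers, 9 were under 1 FPKM in every library. Among them, Erg and Emcn were listed at 0 in all 9 libraries, Pecam1 reached 0.242 FPKM and Kdr 0.0594 FPKM. Their summed level ranged from 4.39 to 5.20 FPKM in Ctrl, 4.41 to 5.09 in Ep1 and 3.65 to 5.08 in Ep2, and the 2 tested, Eng and Egfl7, did not pass limma in any comparison (0 at an unadjusted p below 0.05), while voom, which tested 6, called 1 higher in Ep2 than in Ctrl and than in Ep1. The epithelial keratin genes Krt8, Krt18 and Krt19 lay between 135 and 714 FPKM. Of the 7 epithelial markers, 3 were under 1 FPKM in every library: Krt7 (0 in all 9), Cdh1 (at most 0.103) and Cldn7 (at most 0.108). The 7 markers summed to between 1029 and 1081 FPKM in Ctrl, 937 and 1041 in Ep1, and 1155 and 1372 in Ep2. In Ep2, 3 of the 4 tested were higher than in Ctrl, beside 23.9% of all tested genes, and 4 of 4 were higher than in Ep1, beside 18.8%. In Ep1 against Ctrl limma called 0 of the 4, with 1 lower at an unadjusted p below 0.05, and voom called 1 lower. Among the pericyte and fibroblast markers, Col1a1 lay between 5.92 and 7.64 FPKM, and the other 7 were under 1 FPKM in every library. The 8 summed to at most 8.88 FPKM. Of these 8, limma tested 1 and called 0 (1 was lower in Ep1 at an unadjusted p below 0.05), while voom tested 3 and called 1 lower in Ep1 and 2 higher in Ep2 than in Ctrl and than in Ep1. Astrocyte markers (0 of 5 tested, at most 0.316 FPKM) and leukocyte markers (0 of 6 tested, at most 0.275 FPKM) were low. The labelled endothelial type is thus not borne out by its defining markers, and the part of this in the changes below was not tested. In these bulk libraries, fewer cells of a type and less RNA per cell cannot be told apart.

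All 10 genes were detected, and all passed the filter of at least 1 FPKM in at least 3 libraries that 11727 genes passed. In Ctrl, Etv4 had the highest level with 79.6 ± 5.61 FPKM (mean ± SD, n = 3 for each gene), followed by Dusp4 with 50.1 ± 0.517 FPKM and Spred2 with 39.4 ± 2.06 FPKM. Dusp6, Dusp5 and Spred1 followed with means of 32.8, 30.5 and 30.5 FPKM, and the Ctrl libraries of Dusp5 overlap those of both others, while Dusp6 lay above Spred1 in all Ctrl libraries. Etv5 (20.4 FPKM), Spry2 (15.0 FPKM) and Spry4 (13.8 FPKM) were lower, with no overlap between neighbours. Spry1 was nearly silent at 0.987 ± 0.110 FPKM, at percentile 3.90 of the tested genes by its mean over all libraries, while Etv4 stood at percentile 94.2.

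**Figure D1:**
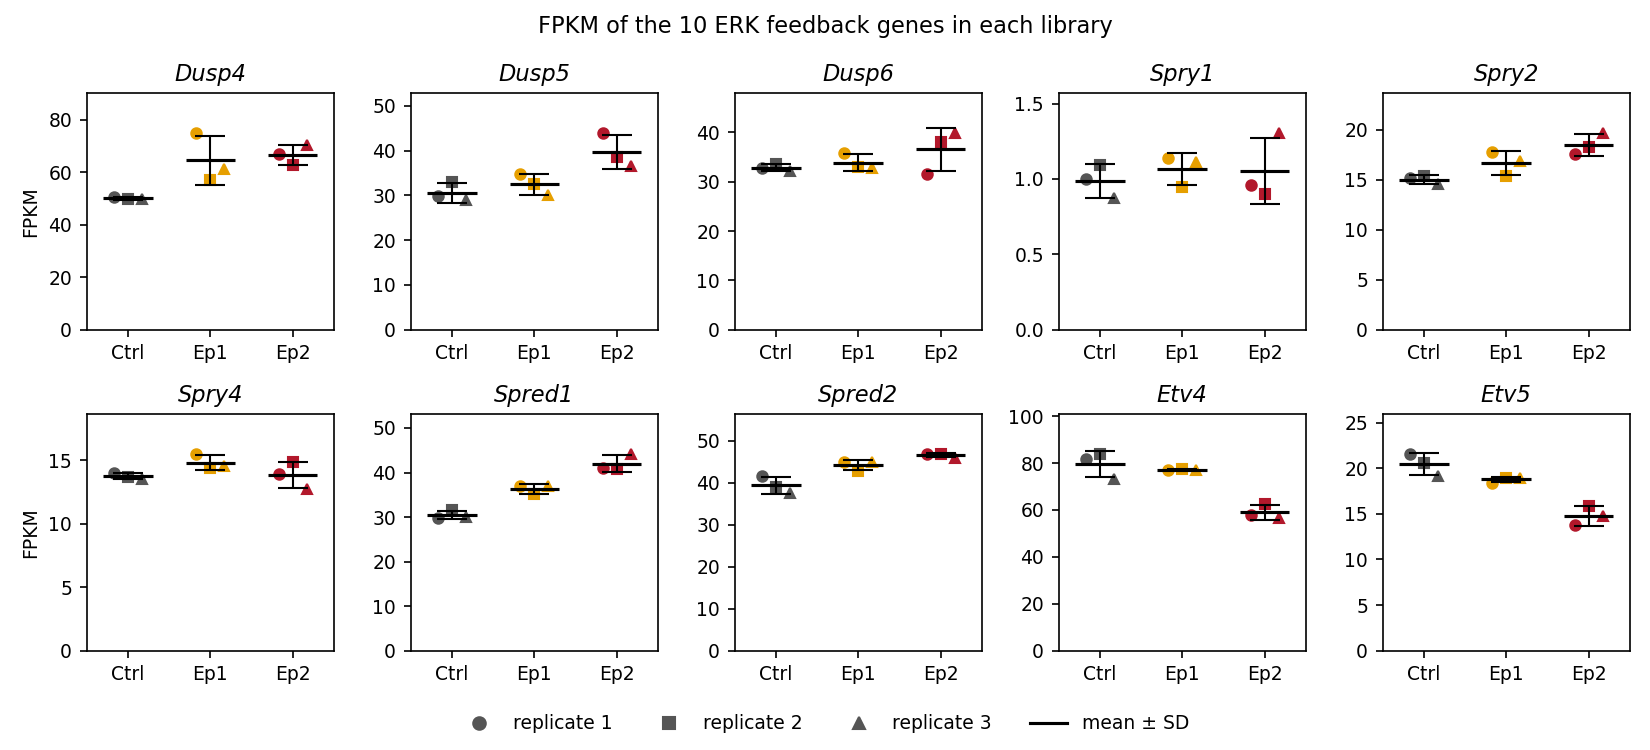
Level of each of the 10 genes in FPKM (vertical axes, each from 0) in the 3 libraries of Ctrl, Ep1 and Ep2; symbols stand for replicates 1 to 3, horizontal lines for the mean and bars for the SD. Etv4 and Etv5 are lowest in Ep2, Spred1 steps up from Ctrl to Ep1 to Ep2, and the 3 Spry1 groups overlap around 1 FPKM.

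At 20 J/cm2, the 10 genes did not move as a block: 5 inhibitor genes rose and both ETS factor genes fell. Dusp4, Dusp5, Spry2, Spred1 and Spred2 were higher in Ep2 than in Ctrl by 0.24 to 0.45 on the log2(FPKM + 1) scale, and Etv4 and Etv5 were lower with log2 fold changes of -0.42 and -0.44 (limma, Benjamini-Hochberg adjusted over all tested genes, threshold 0.05). Dusp6, Spry1 and Spry4 did not pass. Of all tested genes, 23.9% were higher and 29.3% lower in this comparison, against 5 higher and 2 lower of the 10, and the median log2 fold change was 0.19 for the 10 genes and -0.029 for all tested genes. The balance over all genes depended on the scaling, with 3311 higher and 2971 lower after median centring, where the 7 calls of the 10 genes held. The libraries of Ep2 and Ctrl did not overlap for 7 of the 10 genes, and for 59.7% of all tested genes.

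At 10 J/cm2, 3 of the 10 genes rose, Dusp4, Spred1 and Spred2, by 0.16 to 0.35 on the log2 scale, and 0 fell by the limma test (at an unadjusted p below 0.05, 4 were higher and 0 lower, and voom on the fragments called 3 higher and 0 lower). Of all tested genes, 6.32% were higher and 4.97% lower by limma at an adjusted p below 0.05. Voom called 927 higher and 1068 lower of 14112 genes. The share of all genes at an unadjusted p below 0.05 was not counted. The median log2 fold change was 0.092 for the 10 genes and -0.0093 for all tested genes, and groups did not overlap for 5 of the 10 and for 41.3% of all tested genes. The Ep1 and Ep2 comparisons share the 3 Ctrl libraries.

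Between the doses, Dusp5 and Spred1 were higher in Ep2 than in Ep1 and Etv4 and Etv5 were lower, against 18.8% higher and 25.2% lower of all tested genes. The groups did not overlap for 5 of the 10 genes and for 54.4% of all tested genes, and the median log2 fold change was 0.064 for the 10 and -0.015 for all. The changes were small throughout. A minimum absolute log2 fold change of 0.6, the threshold of the study, was then added. Limma called 0 of the 10 genes in each of the 3 comparisons, also at an unadjusted p below 0.05, and voom on the fragments also called 0. The study's own test is not given in the sources used here and the changes here are of log2(FPKM + 1), so these counts are not those of its rule. The share of all tested genes past both thresholds by limma was 0.793% for Ep1 with Ctrl, 9.17% for Ep2 with Ctrl and 5.9% for Ep2 with Ep1. Voom called 246, 2206 and 1550 of 14112 genes in the same order. The share of all genes at an unadjusted p below 0.05 was not counted.

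**Figure D2:**
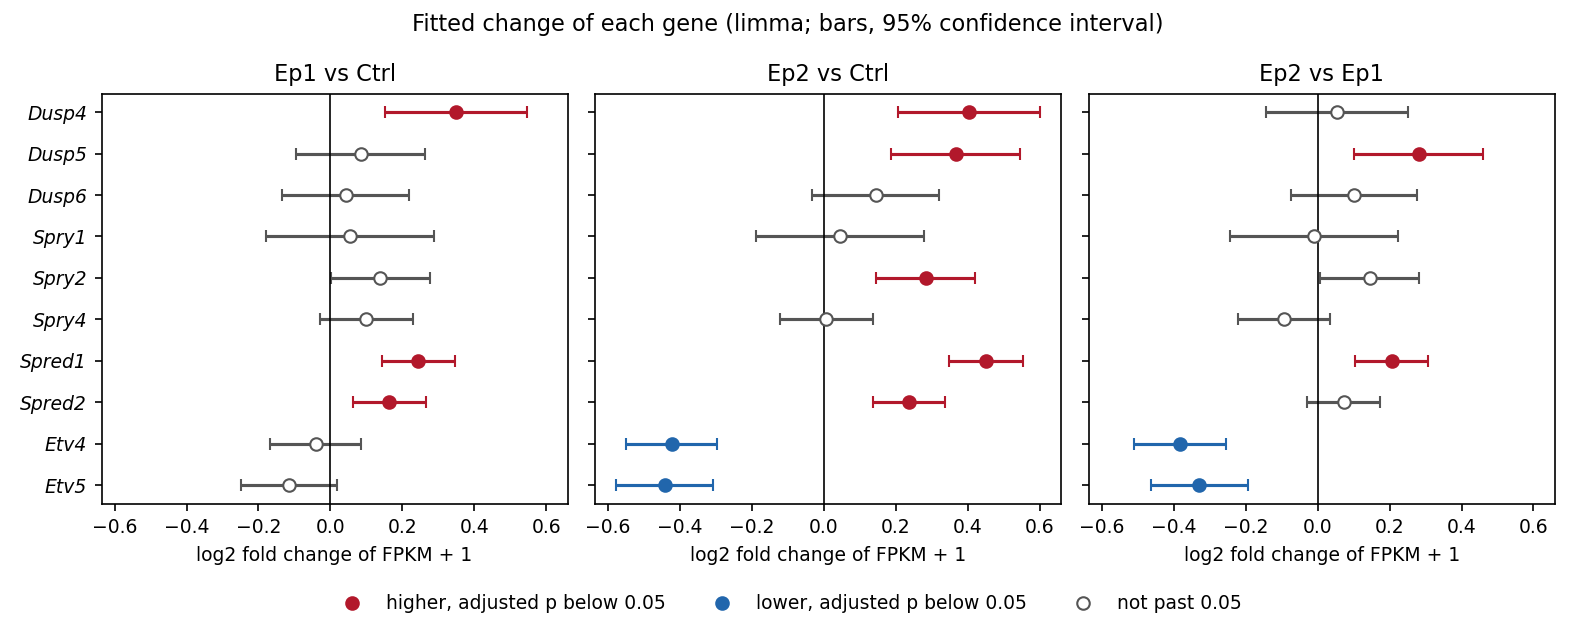
Fitted log2 fold change of FPKM + 1 (horizontal axis) of each gene in the 3 comparisons, with its 95% confidence interval from limma; filled red points were higher and filled blue points lower at an adjusted p below 0.05. In Ep2 against Ctrl, 5 points are red (0.24 to 0.45), both ETS factor genes are blue (-0.42 and -0.44), and Dusp6, Spry1 and Spry4 have intervals that include 0.

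Among the phosphatases, Dusp4, which encodes a nuclear enzyme for ERK and the stress kinases JNK and p38, lies at chr8:34807297-34819894 on the plus strand (GRCm38, ENSMUSG00000031530). Its level was 50.7, 49.9 and 49.7 FPKM in Ctrl replicates 1 to 3, 75.0, 57.2 and 61.3 FPKM in Ep1, and 66.9, 62.7 and 70.5 FPKM in Ep2. All treated libraries stood above all Ctrl libraries, while Ep1 replicate 1 stood above every Ep2 library. Dusp4 rose by 0.35 ± 0.088 (log2 fold change ± SE) in Ep1 (adjusted p = 0.0363) and by 0.40 ± 0.088 in Ep2 (adjusted p = 0.00383). The doses differed by 0.055, with a 95% confidence interval of -0.14 to 0.25 (adjusted p = 0.647). The Ep1 call was lost without Ctrl replicate 1, 2 or 3 (adjusted p = 0.0979, 0.122 and 0.0773), and without Ep1 replicate 1 or 3 (0.0638 and 0.0839), as well as with no filter (0.113), and without Ep1 replicate 1 the fold change itself fell to 0.24. Without that library Dusp4 was higher in Ep2 than in Ep1 by 0.17 (adjusted p = 0.0475).

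Dusp5, which encodes a nuclear phosphatase specific for ERK, lies at chr19:53529109-53542431 on the plus strand (ENSMUSG00000034765), and its upstream sequence above carries the CArG boxes. It measured 29.8, 33.0 and 28.9 FPKM in Ctrl, 34.7, 32.6 and 30.1 FPKM in Ep1, and 44.0, 38.5 and 36.6 FPKM in Ep2. Every Ep2 library was above every Ctrl and Ep1 library, and Ep1 overlapped Ctrl. Dusp5 rose by 0.37 ± 0.080 in Ep2 against Ctrl (adjusted p = 0.0038) and by 0.28 ± 0.080 against Ep1 (adjusted p = 0.0178), a call lost without Ep1 replicate 3 (adjusted p = 0.0711) and with no filter on low genes (0.0542). In Ep1 against Ctrl the difference was 0.085, with an interval of -0.095 to 0.26 (adjusted p = 0.516).

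Dusp6 encodes the cytoplasmic phosphatase that anchors and inactivates ERK, and lies at chr10:99263231-99267489 on the plus strand (ENSMUSG00000019960). Its level was 32.7, 33.6 and 32.2 FPKM in Ctrl, 35.8, 33.0 and 32.8 FPKM in Ep1, and 31.6, 38.1 and 39.9 FPKM in Ep2. The Ep2 libraries spread widest, with replicate 1 below all Ctrl libraries and replicates 2 and 3 above all of them. The difference was 0.14 in Ep2 against Ctrl (interval -0.033 to 0.32, adjusted p = 0.153) and 0.042 in Ep1 (interval -0.13 to 0.22, adjusted p = 0.762). Without Ep2 replicate 1, Dusp6 was higher in Ep2 than in Ctrl by 0.24 (adjusted p = 0.00322) and than in Ep1 by 0.20 (adjusted p = 0.0108), and with each library corrected for gene length it was higher than in Ctrl by 0.22 (adjusted p = 0.0406).

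Of the Sprouty genes, whose proteins block the step from receptor to RAS and RAF, Spry2 passed the test. Spry2 (chr14:105891947-105896819, minus strand, ENSMUSG00000022114) stood at 15.1, 15.4 and 14.5 FPKM in Ctrl, 17.7, 15.4 and 16.8 FPKM in Ep1, and 17.5, 18.3 and 19.7 FPKM in Ep2. The Ep2 libraries were all above the Ctrl libraries, and Ep1 overlapped both. Spry2 rose by 0.28 ± 0.061 in Ep2 (adjusted p = 0.00364), and its difference in Ep1 was 0.14 (interval 0.00058 to 0.28, adjusted p = 0.168). Ep2 against Ep1 gave 0.14 as well (interval 0.0072 to 0.28, adjusted p = 0.0821), and this passed without Ep1 replicate 1 (adjusted p = 0.0445) or Ep2 replicate 1 (0.0447), with median centring (0.0251) and with the gene length correction (0.0307).

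Spry4 (chromosome 18, minus strand, ENSMUSG00000024427) measured 14.0, 13.7 and 13.5 FPKM in Ctrl, 15.5, 14.4 and 14.6 FPKM in Ep1, and 13.9, 14.9 and 12.8 FPKM in Ep2. The Ep1 libraries stood above all Ctrl libraries by a narrow margin, and Ep2 overlapped both groups. The difference was 0.0998 in Ep1 (interval -0.029 to 0.23, adjusted p = 0.276) and 0.0066 in Ep2 (interval -0.12 to 0.13, adjusted p = 0.932). Spry1 (chr3:37639947-37644598, plus strand, ENSMUSG00000037211) stood at 0.999, 1.09 and 0.871 FPKM in Ctrl, 1.14, 0.944 and 1.11 FPKM in Ep1, and 0.957, 0.901 and 1.31 FPKM in Ep2. These values rest on 46 to 63 fragments per library, only 4 libraries reached 1 FPKM, and the 3 groups overlap. Its difference was 0.055 in Ep1 (interval -0.18 to 0.29) and 0.044 in Ep2 (interval -0.19 to 0.28), so changes within these intervals were not resolved for Spry1.

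The Spred genes, whose proteins bring neurofibromin to the membrane and so keep RAS inactive, had the only calls at both doses besides Dusp4. Spred1 (chr2:117121374-117182279, plus strand, ENSMUSG00000027351) stood at 29.9, 31.5 and 30.0 FPKM in Ctrl, 36.9, 35.1 and 36.9 FPKM in Ep1, and 41.0, 40.9 and 44.2 FPKM in Ep2. The 3 groups do not overlap at any step, and Spred1 was the only one of the 10 genes past the test in all 3 comparisons. It rose by 0.24 ± 0.045 in Ep1 (adjusted p = 0.0141), by 0.45 ± 0.045 in Ep2 (adjusted p = 4.73e-05) and by 0.21 ± 0.045 from Ep1 to Ep2 (adjusted p = 0.00524). The Ep1 call was lost without Ctrl replicate 1 (adjusted p = 0.0576), Ep1 replicate 1 (0.0562) or Ep1 replicate 3 (0.0649), and the other calls held in each alternative run.

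Spred2 (chr11:19924375-20024026, plus strand, ENSMUSG00000045671) measured 41.7, 38.9 and 37.7 FPKM in Ctrl, 45.0, 42.9 and 44.9 FPKM in Ep1, and 46.9, 46.8 and 46.0 FPKM in Ep2. Its groups also do not overlap, though the Ep1 and Ep2 libraries lie close together. Spred2 rose by 0.16 ± 0.045 in Ep1 (adjusted p = 0.0469) and by 0.24 ± 0.045 in Ep2 (adjusted p = 0.00178), and the doses differed by 0.072 (interval -0.029 to 0.17, adjusted p = 0.22). The Ep1 call stood at the threshold and was lost without Ctrl replicate 2 or 3 (adjusted p = 0.158 and 0.109), without Ep1 replicate 1, 2 or 3 (0.132, 0.0656 and 0.151), with no filter (0.116), with median centring (0.0552) and with a replicate block (0.0577). With median centring Spred2 was also higher in Ep2 than in Ep1 (0.13, adjusted p = 0.0421).

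The ETS factor genes went the other way at the higher dose. Etv4 (chr11:101769742-101785371, minus strand, ENSMUSG00000017724) stood at 81.6, 83.9 and 73.3 FPKM in Ctrl, 77.1, 77.4 and 77.1 FPKM in Ep1, and 57.8, 62.6 and 56.7 FPKM in Ep2. The Ep2 libraries were below every other library, and the Ep1 libraries lay inside the Ctrl range. Etv4 fell in Ep2 with a log2 fold change of -0.42 ± 0.057 against Ctrl (adjusted p = 0.000232) and -0.38 ± 0.057 against Ep1 (adjusted p = 0.000621). In Ep1 its difference from Ctrl was -0.041 (interval -0.17 to 0.086, adjusted p = 0.666).

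Etv5 (chr16:22381309-22439719, minus strand, ENSMUSG00000013089) measured 21.6, 20.6 and 19.2 FPKM in Ctrl, 18.4, 19.0 and 18.9 FPKM in Ep1, and 13.7, 15.9 and 14.7 FPKM in Ep2. The 3 groups do not overlap, with a narrow gap between Ctrl and Ep1 and a wide one between Ep1 and Ep2. Its log2 fold change was -0.44 ± 0.060 in Ep2 against Ctrl (adjusted p = 0.000239) and -0.33 ± 0.060 against Ep1 (adjusted p = 0.00189), while Ep1 against Ctrl gave -0.11 (interval -0.25 to 0.019, adjusted p = 0.232). The Etv4 and Etv5 calls at 20 J/cm2, against Ctrl and against Ep1, held in all 14 alternatives run for each, as did all 5 calls of higher genes in Ep2 against Ctrl.

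**Figure D3:**
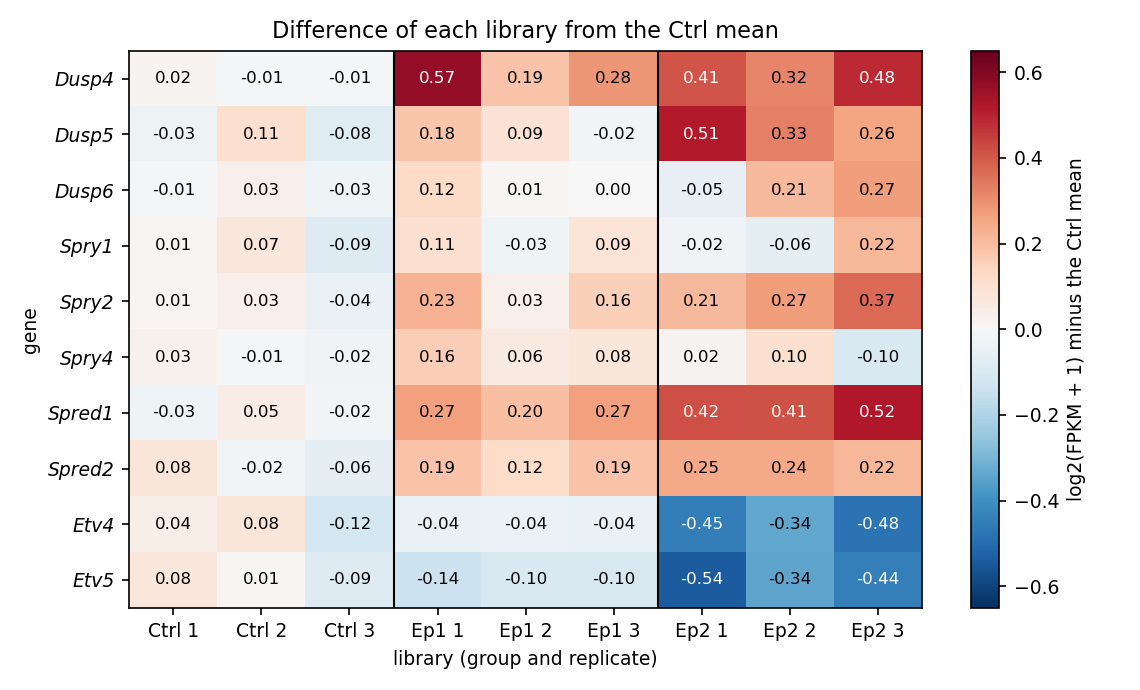
Difference of log2(FPKM + 1) in each library from the Ctrl mean, for the 10 genes (rows) and 9 libraries (columns, group and replicate); red is higher and blue lower, with the value in each cell. Etv4 and Etv5 are blue in all Ep2 libraries (-0.54 to -0.34), Spred1 is red in all treated libraries (0.20 to 0.52), and Dusp4 is highest in Ep1 replicate 1 (0.57).

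Libraries of 1 group were not evenly placed for these genes. Ep1 replicate 1 was the highest of its group for 7 of the 10 genes, and Ctrl replicate 3 was the lowest of its group for 9 of the 10. The same count over all tested genes was not made, so this placing may not be particular to these genes. Over the 9 libraries, which share treatment and library effects, Etv4 and Etv5 had a Pearson correlation of 0.97, and 0.76 once the mean of each group was subtracted. Spry2 and Spred1 had 0.94 and 0.83. Spred1 and Etv5, which went in opposite directions, had -0.89 over all libraries and -0.072 within groups. As descriptions over the same 9 libraries, the genes outside the 10 with the most similar pattern were Rhob for Dusp4 (r = 0.980), Prrc1 for Dusp5 (0.984), Stat3 for Dusp6 (0.980), Zfp36l1 for Spry1 (0.926), Slco2a1 for Spry2 (0.987), Yju2 for Spry4 (0.896), Pvr for Spred1 (0.991), Zfp703 for Spred2 (0.991), Drg2 for Etv4 (0.993) and Tango6 for Etv5 (0.995).

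Other genes of the pathway are given for context, and their counts stand beside the shares of all tested genes called in the same comparisons, 6.32% higher and 4.97% lower in Ep1 and 23.9% higher and 29.3% lower in Ep2. Of 14112 genes tested by voom, 927 were higher and 1068 lower in Ep1, and 3565 higher and 3484 lower in Ep2. All 8 other MAP kinase phosphatases were tested. By limma, 3 rose and 5 did not pass in Ep1, and 3 rose, 1 fell and 4 did not pass in Ep2, while voom called 2 higher and 1 lower in Ep1 and 4 higher and 1 lower in Ep2 (median log2 fold change 0.20 and 0.28). Dusp1, an immediate early gene, stood at 6.88, 7.07 and 6.05 FPKM in Ctrl, 25.4, 12.1 and 13.3 FPKM in Ep1, and 15.9, 9.53 and 10.7 FPKM in Ep2, with replicate 1 the highest of both treated groups, as for Dusp4 in Ep1. It rose in Ep1 by 1.15 (adjusted p = 0.0387, lost without any 1 of the Ctrl libraries or Ep1 replicate 1 or 3, up to 0.113, and with no filter, only the groups compared or voom, up to 0.0839). In Ep2 it had 0.74 (adjusted p = 0.0552), which passed in 4 of 14 alternatives. Dusp2 and Dusp16 rose at both doses, Dusp2 by 0.40 and 0.59 and Dusp16 by 0.47 and 0.66 (adjusted p = 0.00538, 1.78e-05, 0.0342 and 0.00108), and the Dusp16 call in Ep1 was lost without the same libraries (adjusted p up to 0.121) and with no filter or a replicate block (up to 0.106). Dusp14 rose in Ep2 by 0.25 (adjusted p = 0.0183, lost without Ctrl replicate 2 or 3, up to 0.06, and with no filter, 0.0525). Dusp9, a cytoplasmic ERK phosphatase close to DUSP6, fell in Ep2 with a log2 fold change of -0.75 (adjusted p = 8.04e-06), from 30.4 to 32.7 FPKM in Ctrl to 17.6 to 18.9 FPKM. In Ep2, Dusp7 (-0.089, adjusted p = 0.274), Dusp8 (-0.20, adjusted p = 0.123) and Dusp10 (0.30, adjusted p = 0.051) did not pass limma, though Dusp10 passed in 5 of 14 alternatives, voom among them, and Dusp8 in 1, without Ctrl replicate 3.

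Of 8 further feedback inhibitors of receptors and RAS, 7 were tested, and Spry3 was left out with at most 0.447 FPKM. By limma 0 of the 7 passed in Ep1, where 2 were higher and 1 lower at an unadjusted p below 0.05 and voom called 1 higher. In Ep2 5 rose and 2 did not pass (median log2 fold change 0.098 in Ep1 and 0.23 in Ep2). The genes that rose were Rasa1 (0.38) and Nf1 (0.30), both brakes on RAS, Lrig1 (0.25) and Errfi1 (0.23), inhibitors of ERBB receptors, and Spred3 (0.22, adjusted p = 0.015, lost without Ctrl replicate 1 or Ep2 replicate 3, up to 0.0512). Il17rd (0.13, adjusted p = 0.179) and Rasa3 (-0.090, adjusted p = 0.0602) did not pass.

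Upstream of these genes, 11 of 20 ligand genes were tested, and 3 rose and 1 fell in Ep1 while 7 rose and 1 fell in Ep2. The EGF receptor ligand genes Areg and Ereg rose by 0.70 and 0.40 in Ep1 (adjusted p = 0.00551 and 0.00683) and by 1.02 and 0.92 in Ep2 (2.13e-05 and 4.03e-06). Pdgfa fell in Ep1 (-0.39, adjusted p = 0.0109, and 0.0544 without Ctrl replicate 2) and Vegfb in Ep2 (-0.30), where the call was lost without Ctrl replicate 1 or 2 (adjusted p up to 0.0606) and with the gene length correction (0.0826). Of 7 receptor tyrosine kinase genes tested among 19, 0 passed in Ep1 by limma (1 was lower at an unadjusted p below 0.05, and voom called 1 lower), and 5 rose and 2 did not pass in Ep2, led by Flt1 (0.59) and Fgfr1 (0.56). Of 20 genes of the RAS-RAF-MEK-ERK cascade, 3 rose and 17 did not pass in Ep1, and 7 rose and 7 fell in Ep2. The RAS exchange factor gene Sos2 rose in Ep1 (0.19, adjusted p = 0.0312, lost in 9 of 14 alternatives) and in Ep2 (0.37, adjusted p = 0.000125). In Ep2 Mapk3, which encodes ERK1, fell (-0.39, adjusted p = 5.15e-05), as did Map2k2, which encodes MEK2 (-0.34, adjusted p = 0.00138).

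Among other genes that ERK signalling induces, 3 of 14 rose and 11 did not pass in Ep1, and 7 rose and 2 fell in Ep2 (median 0.13 and 0.35). The early gene Egr1 rose in Ep1 by 0.89 (adjusted p = 0.013) and was lower in Ep2 than in Ep1 (-0.67, adjusted p = 0.00822). The Ep1 call of Egr1 was lost without Ctrl replicate 1 or Ep1 replicate 3 (up to 0.0534). Maff rose at both doses (0.58 and 0.60), Klf10 (0.48) and Myc (0.69) rose in Ep2, and Ccnd1 (-0.23) and Ier2 (-0.21, not past with the gene length correction, adjusted p = 0.108) fell in Ep2. Of the 13 other ETS factor genes tested among 16, 3 rose and 10 did not pass in Ep1, and 6 rose and 1 fell in Ep2. The 3 that rose in Ep1 were Elf1 (0.36, adjusted p = 0.0179), Elk4 (0.27, adjusted p = 0.0181) and Gabpa (0.31, adjusted p = 0.0111). These calls were lost in 5, 5 and 2 of 14 alternatives. Elf1 (0.74), Elk4 (0.38) and Gabpa (0.18, lost without Ctrl replicate 1 or 2, adjusted p up to 0.0621) were higher in Ep2 as well. The repressor gene Erf was lower (-0.30, adjusted p = 0.000326), beside -0.42 for Etv4 and -0.44 for Etv5, and the difference between these genes was not tested.

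**Figure D4:**
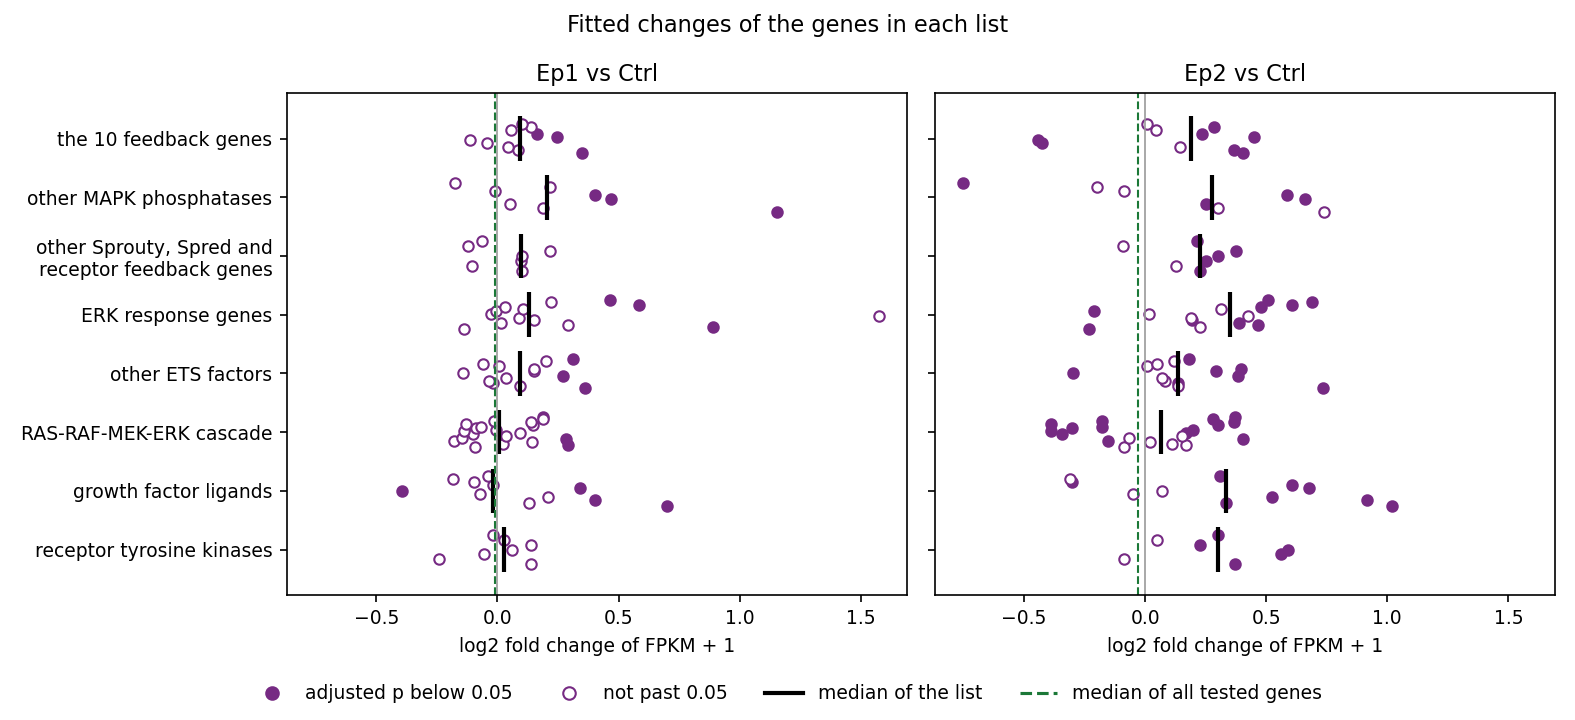
Fitted log2 fold change of FPKM + 1 (horizontal axis) for Ep1 and Ep2 against Ctrl. Rows hold the 10 genes described here, labelled the 10 feedback genes, and every tested gene in 7 lists of the pathway. Filled points passed an adjusted p of 0.05, black bars are list medians and the dashed line is the median of all tested genes. In Ep2 the 10 genes have a median of 0.19 with Etv4 and Etv5 set apart on the left, and the growth factor ligands reach 1.02.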

How the data were processed

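The deposited tables hold 1 FPKM value per gene and library, which the authors made from paired-end reads aligned to the mouse genome, and a gene length in bases. The methods name GRCm39 and the submitters' processing notes name mm8 and Bowtie 0.12.2, but the listed coordinates overlapped the RefSeq positions on GRCm38 for 99.86% of 37620 genes and the GENCODE M39 positions on GRCm39 for 10.98%, so positions here are on GRCm38. The counting tool, its use of strand and the authors' test are not given in the sources used here. FPKM times gene length gave whole multiples of 1 step per library to within 0.05 for 100% of the values checked, from which fragments were recovered. Where 0 fragments were counted, an expected count of up to about 3 remains possible, a set allowance that was not estimated from these data.

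The 10 genes, the pathway and marker lists, the tests and the alternatives were chosen with earlier results of these data known. Groups follow the library titles. log2(FPKM + 1) of the 11727 genes with at least 1 FPKM in at least 3 libraries was fitted over all 9 libraries with limma (trend, robust), with p-values adjusted by Benjamini-Hochberg over all tested genes in each comparison, and intervals are at 95% without adjustment. The pseudocount of 1 understates changes of low genes such as Spry1. The alternatives were median centring, no filter, at least 1 FPKM in all 9 libraries, a pseudocount of 0.1, only the groups compared, a replicate block, voom on fragments (at least 10 in at least 3 libraries), a gene length correction and the omission of each library.

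Named were all 10 genes, every gene of the lists of other phosphatases and other feedback inhibitors, and in each further pathway list the 2 smallest adjusted p-values in each direction against Ctrl, of which 1 gene is not reported here. Likeness is the highest Pearson correlation of log2(FPKM + 1) over the 9 libraries. The procedure was tested on simulated data. Software was Python 3.11.15, numpy 2.4.6, pandas 2.3.3, matplotlib 3.10.9, R 4.3.3 and limma 3.58.1.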

Additional observations from a re-analysis of the deposited data

How the results depend on the processing

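Of 417 refits of the 10 genes, 379 kept direction and side of the threshold, 19 lost and 9 gained a call, and 10 turned sign, none of a called change. The number of higher genes in Ep1 was 3, against 1 with no filter (0 to 2 with 1 library left out), and in Ep2 against Ep1 it was 2, against 4 with median centring and 1 with no filter (1 to 4 with 1 library left out). The sign turned for Spry1 in Ep2 against Ep1 with median centring (0.045) and the gene length correction (0.047). With 1 library left out, Spry1 ranged from -0.097 to 0.042 in that comparison and from -0.041 to 0.098 in Ep2 against Ctrl, Spry4 from -0.042 to 0.060 in Ep2 against Ctrl, and Dusp4 from -0.026 to 0.17 in Ep2 against Ep1. The cause was not tested.

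Deviations from the group mean correlated at -0.056 to 0.074 between same-numbered libraries of different groups. Between libraries of different number they correlated at -0.11 to 0.15. Such correlations cannot show whether same-numbered libraries were prepared together. With the replicate block, 582 genes were higher and 469 lower in Ep1 against 741 and 583, and of the 10 genes the Ep1 call of Spred2 was lost.

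Counts over all genes moved most in Ep1: 242 higher and 154 lower with no filter, 1153 and 1009 with only the groups compared, 927 and 1068 with voom, and 111 to 575 higher and 78 to 459 lower with 1 library of either group left out. With the fold threshold, Ep1 had 93, against 41 with no filter, 147 with the pseudocount of 0.1, 246 with voom and 33 to 112 with 1 library left out. Ep2 had 1075 against 1616 and 2206, and Ep2 against Ep1 had 692 against 1101 and 1550, with that pseudocount and with voom. In Ep2 against Ctrl, 2800 genes were higher and 3436 lower, against 3311 and 2971 with median centring and 3565 and 3484 with voom. In Ep2 against Ep1, 2206 genes were higher and 2950 lower, against 2974 and 2383 with median centring and 3107 and 2774 with voom. Spry1 was untested under the filter on all 9 libraries. Spry1 rests on 46 to 63 fragments per library.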
